A study of Mus musculus with 6 samples.

Results

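The clustered protocadherins are 58 genes of the 24444 in the deposited table, taken as every row whose symbol begins with Pcdha, Pcdhb or Pcdhg. They comprise 14 genes of the alpha cluster, 22 of the beta cluster and 22 of the gamma cluster. RNA-seq of poly(A) RNA was done on the telencephalon, the forebrain part that gives rise to the cortex, of C57BL/6J mouse embryos at E12.5. There were 3 libraries labelled Arl13b-/- and 3 labelled wild-type. The product of Arl13b is a ciliary GTPase needed for signalling from primary cilia, and the series' title names neuronal cilia and axon tracts. The labels give no details of the mutant allele, of the cells in which Arl13b is lost, or of the number of embryos behind a library. The p-values below therefore reflect library-to-library spread alone, which could be technical.

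Clustered protocadherins are cell-surface adhesion molecules of the cadherin family that bind copies of themselves on other membranes. A neuron switches on a small subset of them through promoter choice that depends on the insulator protein CTCF, cohesin and DNA methylation, and the resulting barcode lets its branches recognise and avoid each other. In the alpha and gamma clusters each gene has its own variable exon, which encodes the extracellular domain and is spliced to constant exons shared by the whole cluster. Beta genes have no constant exons. The C-type genes (Pcdhac1, Pcdhac2, Pcdhgc3, Pcdhgc4 and Pcdhgc5) lie at the ends of the alpha and gamma clusters, and most of them are expressed more uniformly among neurons than the other members. Alpha protocadherins are known for axon targeting, and Pcdhgc4 for interneuron survival.

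Because of this gene structure, the values of alpha and gamma members are not fully independent of each other. In the GENCODE vM21 annotation, each alpha transcript shared 2860 bases with another member of its cluster, which was 48.6% to 54.9% of its length. Gamma transcripts shared between 2116 and 2119 bases, or 41.7% to 45.9% of their length. How the authors assigned reads in these exons is not given in the sources used here, so alpha and gamma values may include reads divided among members. Among the beta genes, Pcdhb21 and Pcdhb22 shared 455 bases and the others none.

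Deposited values are variance-stabilised and close to a log2 scale. They were turned back into normalized counts, and a level below is a normalized count unless said otherwise. Estimated depth ranged between 27600000 and 47400000 reads in Arl13b-/- libraries and between 35500000 and 51700000 in wild-type libraries. Arl13b itself had 492, 532 and 564 normalized counts in Arl13b-/- 1 to 3, against 661, 553 and 560 in wild-type 1 to 3. Its groups overlapped and its difference was -0.14 (SE 0.20, limma adjusted p = 0.990), so the level of the targeted gene does not check the genotype labels. A mutation need not change the level of a transcript. Across the 14249 genes past a low-value filter, Arl13b-/- 1 and 3 and wild-type 2 and 3 correlated with each other at r of 0.985 to 0.995. Arl13b-/- 2 correlated with those 4 at only 0.702 to 0.722, and wild-type 1 at 0.880 to 0.898. Arl13b-/- 2 and wild-type 1 correlated with each other at 0.86. Each result is therefore given for all 6 libraries and for the 4 libraries without these 2. Emx2, a transcription factor of the dorsal telencephalon, had 1135, 180 and 848 normalized counts in Arl13b-/- 1 to 3, against 690, 2093 and 2680 in wild-type 1 to 3. Dlx2, a transcription factor of the ventral telencephalon, had 3663, 156 and 1685 in Arl13b-/- 1 to 3, against 2343, 3060 and 3840 in wild-type 1 to 3. Both markers of the labelled tissue were detected in every library and were lowest in Arl13b-/- 2. Sex-linked genes differed between the genotypes in the 4 libraries that resembled each other. Xist, expressed in females, had 16292 and 19017 counts in Arl13b-/- 1 and 3 and 26.5 and 213 in wild-type 2 and 3, so sex and genotype cannot be told apart there. Of the 2 libraries that stood apart, Arl13b-/- 2 had 244 counts of Xist and 0 of the Y-linked genes Ddx3y, Eif2s3y, Kdm5d and Uty, and wild-type 1 had 15101 of Xist and 0.537 of Ddx3y. Arl13b-/- 2 thus had little of either, and the labels do not say how these 2 libraries differed in dissection or identity, which limits what their values mean.

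The clustered protocadherins were high in Arl13b-/- 2 and wild-type 1 and nearly level across the other 4 libraries. Alpha genes together had 1325, 19129 and 1223 normalized counts in Arl13b-/- 1 to 3, against 7501, 1323 and 1476 in wild-type 1 to 3. Beta genes together had 1458, 5015 and 1428 in Arl13b-/- 1 to 3, against 4678, 1447 and 1568 in wild-type 1 to 3. Gamma genes together had 17103, 41614 and 16793 in Arl13b-/- 1 to 3, against 32014, 17127 and 17673 in wild-type 1 to 3. In normalized counts, the highest library of each cluster was Arl13b-/- 2 and the next was wild-type 1, so the genotypes overlapped. As a share of each library's total count, the order of these 2 libraries depended on the cluster. Alpha made up 0.0529% of the total in Arl13b-/- 2 and 0.0271% in wild-type 1, beta 0.0139% in Arl13b-/- 2 and 0.0169% in wild-type 1, and gamma 0.115% in Arl13b-/- 2 and 0.116% in wild-type 1. All 57 members past the low-value filter were higher in both of these libraries than in each of the other 4, a pattern that 29.96% of the 14249 genes tested had. As shares of the total, 56 members had it, the exception being Pcdhb8, against 27.03% of genes tested. Pcdhb13 passed the filter only through its high values in these 2 libraries, so that for it the pattern follows from the filter, and 56 members pass in the other 4 libraries alone. The member left out was Pcdhb1. It was listed at 0 in every library except Arl13b-/- 2, where it had 2.62 normalized counts, or about 2 reads. In the 5 libraries at 0, the limit that a count of 0 allows, 3 reads, was between 1.61 and 2.36 normalized counts and covers counting error only.

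**Figure D1:**
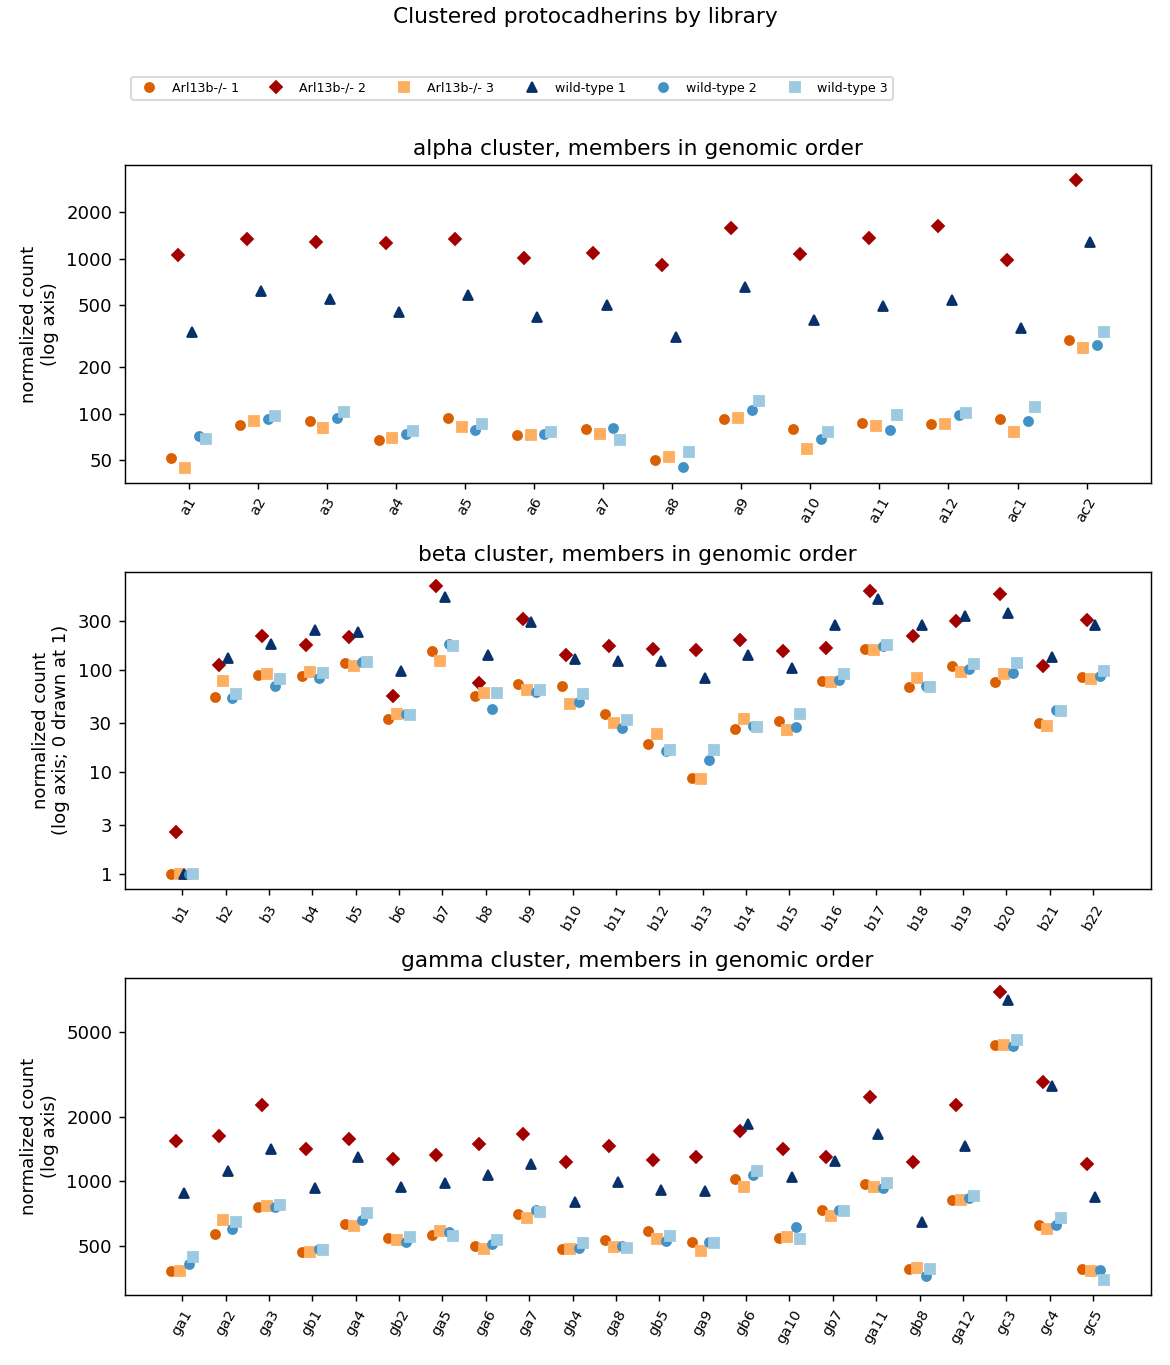
Normalized count (log axis) of each of the 58 members in each library, in genomic order within the alpha, beta and gamma clusters. Red diamonds (Arl13b-/- 2) and dark blue triangles (wild-type 1) stand above the other 4 libraries, most widely in the alpha cluster, and Pcdhb1 is at 0 in 5 libraries, drawn at 1.

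The alpha cluster differed most between libraries. Its total in Arl13b-/- 2 was 15.0 times the mean of Arl13b-/- 1 and 3, and in wild-type 1 it was 5.36 times the mean of wild-type 2 and 3. The same ratios were 3.48 in Arl13b-/- 2 and 3.10 in wild-type 1 for beta, and 2.46 and 1.84 for gamma in the same libraries. Over all genes tested, the median ratio was 0.918 in Arl13b-/- 2 and 0.959 in wild-type 1. Normalized counts of Arl13b-/- 2 summed to 36200000, against 27500000 to 29200000 in the other libraries. As shares of each library's total, its ratios were 11.9 for alpha, 2.76 for beta and 1.95 for gamma. As a share of all clustered protocadherin counts, alpha genes made up 6.66%, 29.1% and 6.29% in Arl13b-/- 1 to 3, against 17.0%, 6.65% and 7.12% in wild-type 1 to 3. Gamma genes made up 86.0%, 63.3% and 86.4% in Arl13b-/- 1 to 3, against 72.4%, 86.1% and 85.3% in wild-type 1 to 3. The gamma cluster therefore held most counts in every library, and its share was lowest where the alpha share was highest. Shares of a whole are bound to each other, so a higher alpha share lowers the gamma share. The gamma counts themselves were higher in Arl13b-/- 2 and wild-type 1.

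Alpha genes varied together. In Arl13b-/- 2 the member ratios to the mean of Arl13b-/- 1 and 3 lay between 11.5 for Pcdhac2 and 21.9 for Pcdha1, with a median of 15.5. In wild-type 1 they lay between 3.56 for Pcdhac1 and 7.07 for Pcdha5, with a median of 5.60. All 14 alpha genes were higher in Arl13b-/- 2 than in wild-type 1. Gamma genes had a narrow range too, with ratios of 1.75 (Pcdhgb6) to 4.75 (Pcdhgc4) in Arl13b-/- 2 and 1.59 (Pcdhgc3) to 4.29 (Pcdhgc4) in wild-type 1. Of the 22 gamma genes, 21 were higher in Arl13b-/- 2 than in wild-type 1, the exception being Pcdhgb6. As shares of the total, 17 of 22 were higher, without Pcdhga4, Pcdhgb6, Pcdhgb7, Pcdhgc3 and Pcdhgc4, while all 14 alpha genes remained higher. Over all genes tested, 4921 of 14249 had a higher share in Arl13b-/- 2 than in wild-type 1.

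Beta genes varied more among themselves. Alpha and gamma members share exons, so their values are not fully independent, whereas most beta genes share no bases. The part of shared exons in the narrower alpha and gamma ranges was not tested. In Arl13b-/- 2 the ratio was 1.28 for Pcdhb8 and 17.8 for Pcdhb13, and in wild-type 1 it was 1.99 for Pcdhb5 and 7.50 for Pcdhb12. The next highest ratio in Arl13b-/- 2 was 7.49 for Pcdhb12, and Pcdhb13 is the member that the filter kept only for its values in these 2 libraries. Of the 21 beta genes tested, 12 were higher in Arl13b-/- 2 than in wild-type 1 in normalized counts. As shares of the total, 5 were higher, against 4921 of 14249 genes tested. Across those genes the log2 ratios of the 2 libraries correlated at r = 0.76 (rho = 0.81), as they did across the 22 gamma genes at r = 0.75, against r = 0.40 across the 14 alpha genes. Genes are not independent replicates, and these values describe 1 library of each genotype. The 5 neighbouring genes Pcdhb11 to Pcdhb15, picked out after their values were seen, had ratios of 5.05, 7.49, 17.8, 6.56 and 5.32 in Arl13b-/- 2, and 4.15, 7.50, 5.54, 5.03 and 3.17 in wild-type 1. Such ratios were not confined to them. Pcdhb20 had 6.57 in Arl13b-/- 2, where the remaining beta genes tested lay below 5.05. In wild-type 1, Pcdhb9 (4.77), Pcdhb18 (4.02) and Pcdhb20 (3.43) were above Pcdhb15, while most others were below it. Pcdhb13 was among the least covered, with 12 and 14 reads in Arl13b-/- 1 and 3 and 20 in wild-type 2, so its ratio is imprecise.

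**Figure D2:**
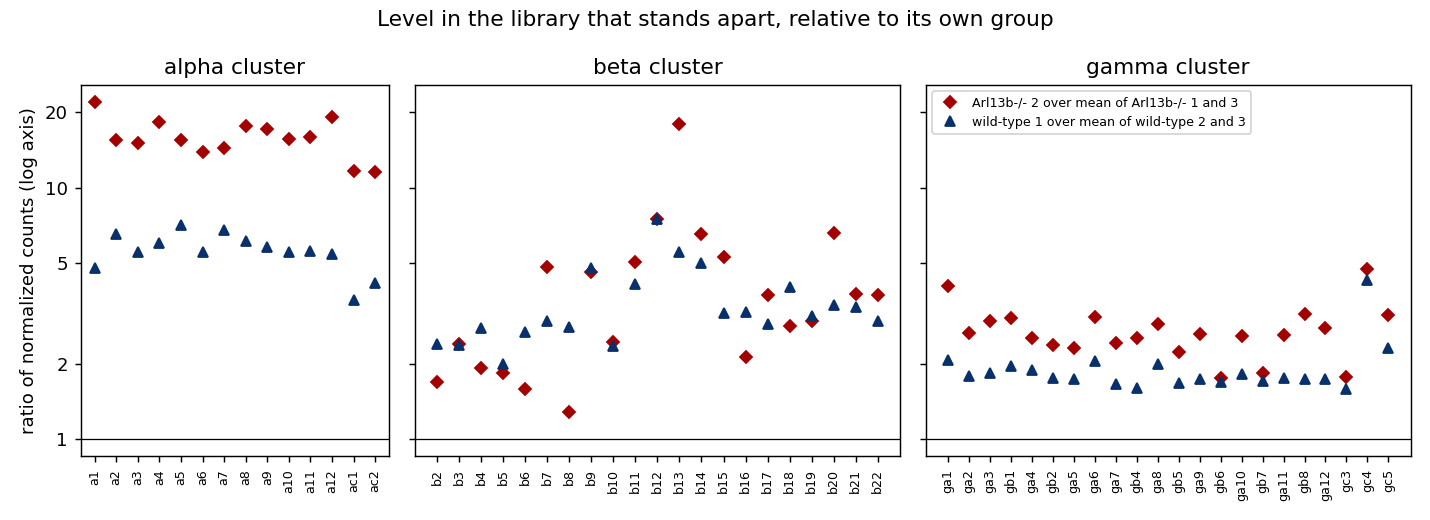
Ratio of normalized counts (log axis) in Arl13b-/- 2 to the mean of Arl13b-/- 1 and 3 (diamonds) and in wild-type 1 to the mean of wild-type 2 and 3 (triangles), for the 57 members past the low-value filter in genomic order. All points lie above 1. Alpha genes form a band near 15 in Arl13b-/- 2, beta genes spread between 1.28 and 17.8 (7.49 without Pcdhb13), and Pcdhgc4 is the highest gamma gene in both libraries.

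Markers of cell state moved with these libraries. The summed level of 15 postmitotic neuron markers, such as Stmn2 and Tubb3, was 188230, 840419 and 189145 in Arl13b-/- 1 to 3, against 361926, 177494 and 177469 in wild-type 1 to 3. It was 4.45 times as high in Arl13b-/- 2 as in Arl13b-/- 1 and 3, with 13 of 15 genes higher. In wild-type 1 it was 2.04 times as high as in wild-type 2 and 3, with 14 of 15 higher. As shares of the total, 12 of 15 were higher in Arl13b-/- 2 and 14 in wild-type 1. Abundant genes weigh most in such a sum. Ratios of single markers ran from 0.801 (Nefm) to 18 (Snap25) in Arl13b-/- 2, and from 1.03 (Nefm) to 6.1 (Mapt) in wild-type 1. The summed level of 15 cell cycle genes was 103220, 2635 and 113356 in Arl13b-/- 1 to 3, against 22221, 94845 and 102207 in wild-type 1 to 3. All 15 were lower in Arl13b-/- 2 and in wild-type 1 than in the other libraries of their genotype. Of 12 radial glia markers, 12 were lower in Arl13b-/- 2 and 9 were lower in wild-type 1. None of the markers in these 3 lists was at 0 in any library. The part of the neuron, cell cycle and radial glia markers in the protocadherin levels was not tested, and in bulk tissue more cells of a type cannot be told apart from more RNA per cell.

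**Figure D3:**
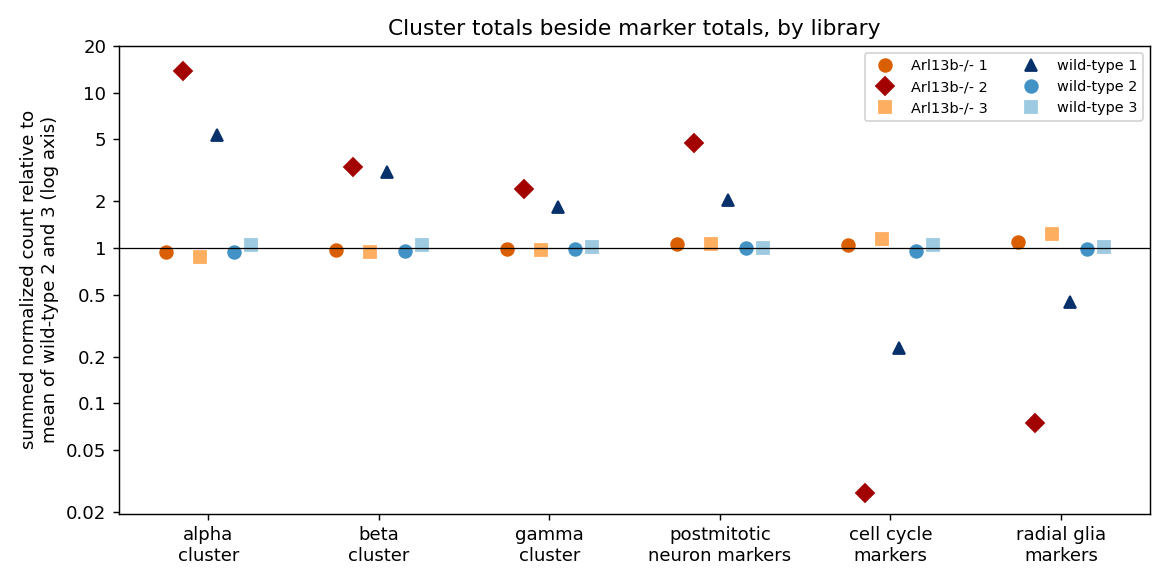
Summed normalized count of each protocadherin cluster and of the postmitotic neuron, cell cycle and radial glia marker lists, divided by the mean over wild-type 2 and 3 (log axis), 1 point for each library. Arl13b-/- 2 and wild-type 1 are above 1 for the 3 clusters and the neuron markers and below 1 for the cell cycle and radial glia markers, while the other 4 libraries stay near 1.

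Markers of other tissues also differed. Surface ectoderm genes such as Krt5 and Krt14 summed to 837, 214 and 299 in Arl13b-/- 1 to 3, against 15686, 4409 and 1952 in wild-type 1 to 3, with 3 of 11 at 0 in Arl13b-/- 2 (Krt5, Krt8 and Cdh1) and 1 at 0 in Arl13b-/- 3 (Krt14). Of 8 red blood cell genes, 4 were at 0 in Arl13b-/- 2, and their sum was 73 to 293342 in Arl13b-/- libraries and 8618 to 74868 in wild-type libraries. Choroid plexus and hem markers summed to 439 to 6197 in Arl13b-/- libraries and 6469 to 28614 in wild-type libraries, with 1 of 8 at 0 in Arl13b-/- 2. The highest sum was that of wild-type 1, where Ttr alone had 25702 counts. Of the 8, 3 were higher and 5 lower in wild-type 1 than in wild-type 2 and 3. In the 4 libraries, Ttr, Clic6 and Wnt2b were lower in Arl13b-/- at a limma adjusted p under 0.05. That was 3 of 8, against 0.253% of genes tested, and Otx2 went the other way at 0.40. Head mesenchyme and meninges markers (10 genes) summed to 616 to 32167 in Arl13b-/- libraries and 26935 to 72906 in wild-type libraries. Endothelial markers (8 genes) summed to 835 to 8544 in Arl13b-/- libraries and 6584 to 8209 in wild-type libraries. Microglial markers (6 genes) summed to 162 to 1334 in Arl13b-/- libraries and 1027 to 1653 in wild-type libraries. Their part in the protocadherin levels was not tested.

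The comparison the design implies is Arl13b-/- against wild-type. In all 6 libraries no clustered protocadherin passed an adjusted p of 0.05 (limma, Benjamini-Hochberg over 14249 genes), nor did any other gene, so the background was 0%. The count at an unadjusted p under 0.05 was 0 members, against 163 genes or 1.14% of those tested. No member had groups that did not overlap, against 8.26% of genes tested. For the 57 members tested this was fixed by the pattern above. Each was highest in Arl13b-/- 2 and wild-type 1, which lie in different genotypes, so the count is no result about genotype. Alpha genes had a median difference of 0.36 on the log2 scale (Arl13b-/- minus wild-type) and all 14 were above 0. The beta median was 0.01 with 11 of 21 above 0, and the gamma median was 0.15 with 19 of 22 above 0, beside a median of 0.00 over all genes tested. These medians turned with single libraries. Without Arl13b-/- 2 they were -0.69 for alpha, -0.39 for beta and -0.29 for gamma, and without wild-type 1 they were 1.01, 0.37 and 0.41. The widest 95% interval of a member's difference was -2.39 to 3.20 (Pcdha12), and the median half-width was 2.62 for alpha, 1.25 for beta and 1.12 for gamma genes.

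In the 4 libraries without Arl13b-/- 2 and wild-type 1 the clusters lay close together. The total in Arl13b-/- 1 and 3 was 0.910 times that in wild-type 2 and 3 for alpha, 0.957 times for beta and 0.974 times for gamma. Again 0 of 57 members passed the adjusted threshold (limma), against 36 genes or 0.253% of those tested. At an unadjusted p under 0.05 there was 1 member, Pcdha1, which was lower, against 14.4% of genes tested, 6.33% being lower. Groups did not overlap for 4 members that were higher and 23 that were lower in Arl13b-/-, against 29.3% and 18.1% of genes tested in those directions and 47.5% in either. Members of a cluster share libraries and, in alpha and gamma, exons, so these counts are not independent. The median difference was -0.08 for alpha, -0.03 for beta and -0.04 for gamma, beside 0.02 over all genes tested. On the variance-stabilised scale, the 95% intervals of the members together spanned -0.55 to 0.46 at the spread of these 4 libraries. That scale understates the change of low genes, so these are not bounds on the change in counts. In normalized counts, the member ratios of Arl13b-/- 1 and 3 to wild-type 2 and 3 lay between 0.584 (Pcdhb13) and 1.31 (Pcdhb12), with a median of 0.964. The intervals assume that the 2 libraries of a group sample the genotype, which 2 libraries cannot show.

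**Figure D4:**
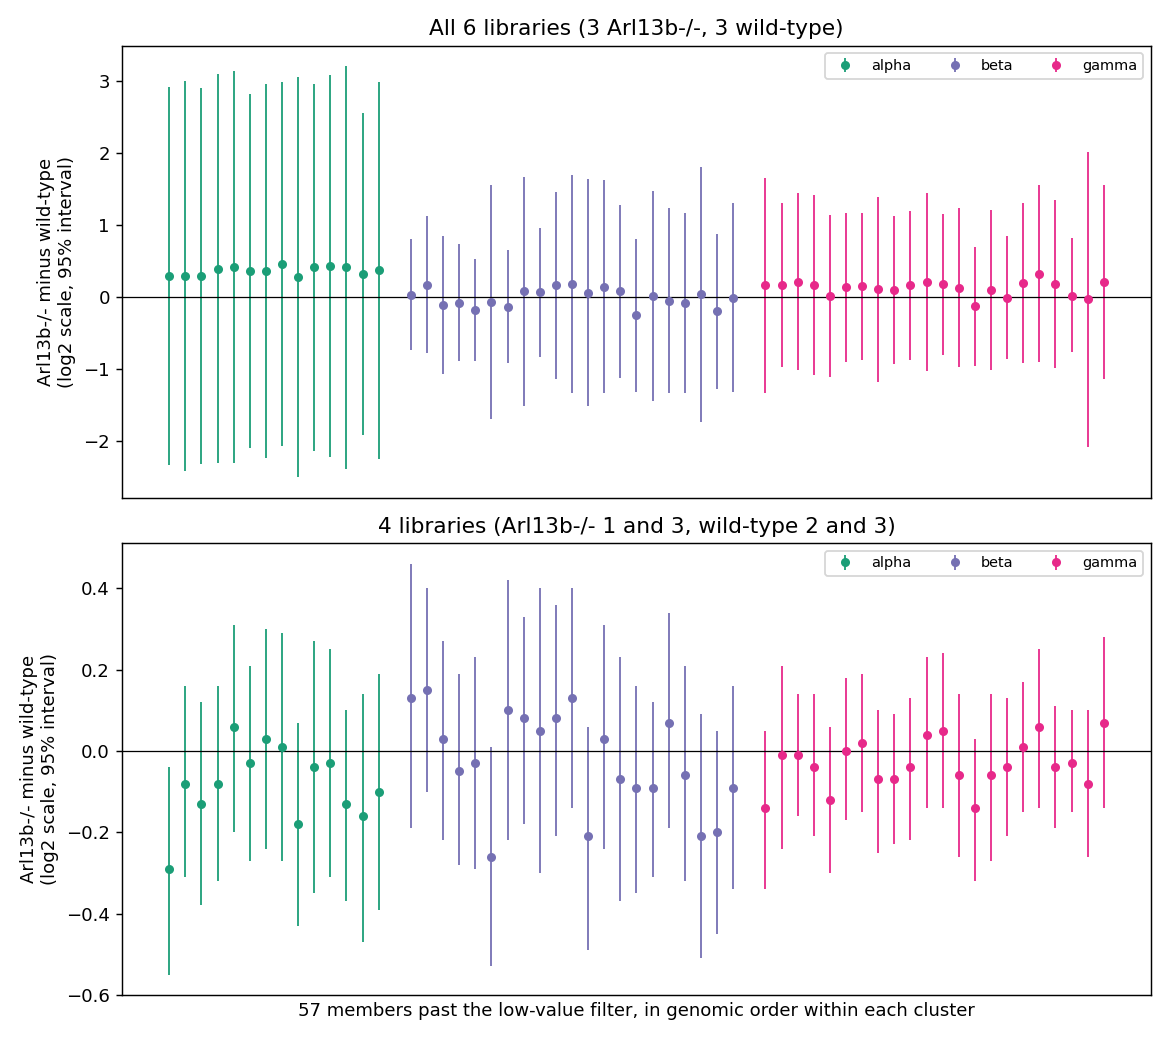
Difference in mean variance-stabilised value, Arl13b-/- minus wild-type, with its 95% interval from limma for the 57 members past the low-value filter, in all 6 libraries (top) and in Arl13b-/- 1 and 3 against wild-type 2 and 3 (bottom). The scales of the panels differ. Every interval crosses 0 in the top panel, and every one but that of Pcdha1, at -0.55 to -0.04, crosses 0 in the bottom panel.

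Among the C-type genes, Pcdhac1 had 92.0, 976 and 75.9 normalized counts in Arl13b-/- 1 to 3, against 359, 90.0 and 111 in wild-type 1 to 3. Pcdhac2, an alpha isoform that serotonergic axons need for their spacing, had 299, 3230 and 263 in Arl13b-/- 1 to 3, against 1276, 275 and 337 in wild-type 1 to 3. Both were high in the libraries that stand apart, and the genotypes overlapped. In the 4 libraries the difference was -0.16 for Pcdhac1 (SE 0.12, limma adjusted p = 0.594) and -0.10 for Pcdhac2 (SE 0.12, adjusted p = 0.744). Pcdhgc3 had 4335, 7639 and 4319 in Arl13b-/- 1 to 3, against 7011, 4282 and 4544 in wild-type 1 to 3. It was the most abundant member, and its intervals were among the narrowest. In all 6 libraries its variance-stabilised difference was 0.02 (95% interval -0.77 to 0.82) and in the 4 libraries -0.03 (-0.15 to 0.10, limma adjusted p = 0.840). Pcdhgc4, the interneuron survival gene, had 629, 2915 and 600 in Arl13b-/- 1 to 3, against 2799, 627 and 678 in wild-type 1 to 3. Pcdhgc5 had 392, 1207 and 381 in Arl13b-/- 1 to 3, against 842, 385 and 345 in wild-type 1 to 3. Pcdhgc4 was close in Arl13b-/- 2 and wild-type 1, whereas Pcdhgc5 was higher in Arl13b-/- 2. Their differences in the 4 libraries were -0.08 (-0.26 to 0.10) and 0.07 (-0.14 to 0.28), with limma adjusted p = 0.679 and 0.747.

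Per kilobase of transcript, the same genes led their clusters. Averaged over the 4 libraries that resembled each other, Pcdhgc3 had 932 normalized counts per kb, against 79.2 to 222 for the other gamma genes. Pcdhac2 had 49.8 per kb, against 9.58 to 19.3 for the other alpha genes, and beta genes past the filter had 3.18 to 44.6 with Pcdhb7 highest. Within the gamma cluster, Pcdhgc3 held 25.6%, 18.6% and 26.0% of the per-kb level in Arl13b-/- 1 to 3, against 22.2%, 25.2% and 25.9% in wild-type 1 to 3. Pcdhgc4 held 3.46%, 6.61% and 3.36% in Arl13b-/- 1 to 3, against 8.26%, 3.45% and 3.61% in wild-type 1 to 3. The share of Pcdhgc4 was thus higher, and that of Pcdhgc3 lower, in the libraries that stood apart. Pcdhac2 held 20.9%, 15.5% and 19.9% of the alpha level in Arl13b-/- 1 to 3, against 15.7%, 19.2% and 21.1% in wild-type 1 to 3. Across genes, the log2 per-kb levels of Arl13b-/- 1 and 3 correlated with those of wild-type 2 and 3 at r = 0.956 for the 14 alpha genes, 0.967 for 21 beta genes and 0.996 for the 22 gamma genes. The rank correlations were 0.88 for alpha, 0.97 for beta and 0.98 for gamma genes, and the transcript lengths that all libraries share add to these values.

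Among the other alpha genes, whose variable exons encode alternative extracellular domains, Pcdha1 had the smallest p in the 4 libraries. It had 51.8, 1054 and 44.4 normalized counts in Arl13b-/- 1 to 3, against 337, 71.5 and 68.6 in wild-type 1 to 3. In the 4 libraries the variance-stabilised difference was -0.29 (SE 0.10, 95% interval -0.55 to -0.04, limma adjusted p = 0.296), and both Arl13b-/- libraries were below both wild-type libraries. With all 6 libraries it was 0.29 (SE 1.1, adjusted p = 0.990). Pcdha9 had 92.0, 1589 and 93.8 in Arl13b-/- 1 to 3, against 659, 105 and 121 in wild-type 1 to 3. Pcdha12 had 86.2, 1636 and 85.2 in Arl13b-/- 1 to 3, against 539, 97.3 and 101 in wild-type 1 to 3. Pcdha2 had 84.7, 1338 and 88.9 in Arl13b-/- 1 to 3, against 620, 92.0 and 97.0 in wild-type 1 to 3. In these 3 genes too, Arl13b-/- 1 and 3 lay below wild-type 2 and 3, with differences of -0.18, -0.13 and -0.08 and limma adjusted p = 0.477, 0.570 and 0.756. Pcdha5 had 93.5, 1347 and 81.5 in Arl13b-/- 1 to 3, against 580, 78.1 and 86.0 in wild-type 1 to 3. Pcdha7 had 78.9, 1086 and 73.4 in Arl13b-/- 1 to 3, against 501, 80.8 and 67.0 in wild-type 1 to 3. These overlapped in the 4 libraries, where their differences were 0.06 and 0.03. Pcdha8 had 50.4, 906 and 52.5 in Arl13b-/- 1 to 3, against 314, 45.0 and 56.8 in wild-type 1 to 3, and Pcdha11 had 86.9, 1352 and 83.3 in Arl13b-/- 1 to 3, against 494, 78.1 and 97.8 in wild-type 1 to 3. They also overlapped, and in all 6 libraries their differences of 0.46 and 0.43 (SE 1.0 and 1.1) were among the largest of the cluster, with limma adjusted p = 0.990.

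Beta genes encode protocadherins from an uninterrupted coding exon. Pcdhb7 had 151, 660 and 123 normalized counts in Arl13b-/- 1 to 3, against 517, 180 and 171 in wild-type 1 to 3. In the 4 libraries its difference was -0.26 (SE 0.11, 95% interval -0.53 to 0.01, limma adjusted p = 0.357). Pcdhb17 had 161, 591 and 156 in Arl13b-/- 1 to 3, against 496, 171 and 174 in wild-type 1 to 3. Pcdhb20 had 76.6, 549 and 90.6 in Arl13b-/- 1 to 3, against 361, 93.9 and 117 in wild-type 1 to 3. Pcdhb21 had 29.9, 110 and 28.3 in Arl13b-/- 1 to 3, against 134, 40.3 and 39.3 in wild-type 1 to 3. In the 4 libraries these 3 were lower in both Arl13b-/- libraries, with differences of -0.09, -0.21 and -0.20 and limma adjusted p = 0.689, 0.494 and 0.444. Pcdhb3 had 88.3, 213 and 90.0 in Arl13b-/- 1 to 3, against 178, 70.1 and 80.4 in wild-type 1 to 3. Pcdhb12 had 18.9, 159 and 23.4 in Arl13b-/- 1 to 3, against 121, 15.9 and 16.5 in wild-type 1 to 3. Both were higher in Arl13b-/- 1 and 3 than in wild-type 2 and 3, with differences of 0.15 and 0.13 and limma adjusted p = 0.554 and 0.643. Pcdhb16 had 77.4, 162 and 75.3 in Arl13b-/- 1 to 3, against 271, 78.8 and 91.5 in wild-type 1 to 3, and Pcdhb6 had 32.7, 55.1 and 36.9 in Arl13b-/- 1 to 3, against 97.8, 37.0 and 36.1 in wild-type 1 to 3. Both were highest in wild-type 1 rather than in Arl13b-/- 2, and their 6-library differences were -0.25 and -0.18 (limma adjusted p = 0.990). Pcdhb11 had 37.2, 170 and 30.2 in Arl13b-/- 1 to 3, against 123, 27.1 and 32.3 in wild-type 1 to 3, and Pcdhb19 had 110, 300 and 94.4 in Arl13b-/- 1 to 3, against 334, 101 and 115 in wild-type 1 to 3. Both overlapped between genotypes in the 4 libraries.

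Gamma genes of the A and B types, which are known for self-avoidance of dendrites, were higher in count and closer between libraries. Pcdhgb6 had 1031, 1723 and 937 normalized counts in Arl13b-/- 1 to 3, against 1846, 1070 and 1118 in wild-type 1 to 3. It had the smallest p of the gamma genes in the 4 libraries, with a difference of -0.14 (SE 0.070, 95% interval -0.32 to 0.03, limma adjusted p = 0.426), and the lowest 6-library difference, -0.13 (SE 0.33, adjusted p = 0.990). Pcdhga1 had 380, 1542 and 382 in Arl13b-/- 1 to 3, against 884, 410 and 446 in wild-type 1 to 3. Its 4-library difference was -0.14 (limma adjusted p = 0.473), with both Arl13b-/- libraries below both wild-type libraries. Pcdhgb8, annotated as a transcribed pseudogene in RefSeq, had 391, 1232 and 395 in Arl13b-/- 1 to 3, against 649, 361 and 390 in wild-type 1 to 3. Its 6-library difference of 0.32 (SE 0.50, limma adjusted p = 0.990) was the highest of the cluster, and its 4-library difference was 0.06. Pcdhga11 had 977, 2487 and 944 in Arl13b-/- 1 to 3, against 1665, 927 and 981 in wild-type 1 to 3. Pcdhga12 had 822, 2275 and 819 in Arl13b-/- 1 to 3, against 1463, 833 and 855 in wild-type 1 to 3. Pcdhga3 had 761, 2261 and 768 in Arl13b-/- 1 to 3, against 1417, 762 and 777 in wild-type 1 to 3. These 3 abundant members differed by 0.01, -0.04 and -0.01 in the 4 libraries, with SE of 0.062, 0.059 and 0.060 (limma). Pcdhgb5 had 585, 1252 and 541 in Arl13b-/- 1 to 3, against 910, 525 and 559 in wild-type 1 to 3, and overlapped between genotypes in the 4 libraries. For the 30 members named, an exact two-sided permutation test over the 6 libraries gave p between 0.5 and 1. This range is no result about genotype. The libraries that stand apart were highest for each of these members and lie in different genotypes. Groupings that place them on the same side give larger differences than the genotype labels do. The smallest p that 3 against 3 allows, 0.1, was therefore out of reach.

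Genes that act on promoter choice in these clusters were measured too. Of 22 such regulators, 0 passed the threshold in either comparison (limma). Their median difference was -0.27 in all 6 libraries, with 1 above 0 and 21 below, and 0.03 in the 4 libraries, with 18 above 0 and 4 below. As with the protocadherins, the libraries that stand apart were the ones that differed, here in the other direction. Of the regulators, 20 of 22 were lower in Arl13b-/- 2 than in Arl13b-/- 1 and 3, and 20 of 22 were lower in wild-type 1 than in wild-type 2 and 3. Ctcf had 5933, 3143 and 6197 normalized counts in Arl13b-/- 1 to 3, against 4090, 5756 and 6130 in wild-type 1 to 3. Dnmt3b, a de novo DNA methyltransferase that methylates these promoters, had 415, 27.9 and 427 in Arl13b-/- 1 to 3, against 104, 392 and 359 in wild-type 1 to 3. Smchd1, a repressor of clustered protocadherins, had 4394, 1119 and 4785 in Arl13b-/- 1 to 3, against 2915, 4131 and 4482 in wild-type 1 to 3. These 3 genes were low in the same libraries, and Ctcf and Smchd1 were chosen after their values were seen. Wapl, which releases cohesin from DNA, had 4589, 1234 and 4702 in Arl13b-/- 1 to 3, against 2373, 4117 and 4496 in wild-type 1 to 3. In the 4 libraries, Wapl differed by 0.11 (SE 0.058, limma adjusted p = 0.466) and Dnmt3b by 0.14 (SE 0.080, adjusted p = 0.486). In all 6 libraries the smallest p values belonged to Wiz, a zinc finger protein found at CTCF sites, at 0.32, and to Tet1, a methylcytosine oxidase, at -0.26 (limma adjusted p = 0.990 for both).

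Of 20 intracellular partners and processing enzymes, 0 passed in either comparison (limma). Their median difference was 0.06 in all 6 libraries and 0.01 in the 4 libraries. The smallest p in the 4 libraries belonged to Rhoa, a GTPase of the actin cytoskeleton, at 0.13 (SE 0.043, adjusted p = 0.286), and to Axin1, a scaffold of Wnt signalling that binds Pcdhgc3, at -0.10 (SE 0.047, adjusted p = 0.402). In all 6 libraries they belonged to Ret, a receptor tyrosine kinase that associates with alpha and gamma protocadherins, at -0.55, and to Cyfip1, a subunit of the WAVE actin regulatory complex, at -0.61 (adjusted p = 0.990 for both). Ptk2b, the kinase PYK2 that binds the constant cytoplasmic domains, had 24.7, 5924 and 35.3 normalized counts in Arl13b-/- 1 to 3, against 153, 27.2 and 25.1 in wild-type 1 to 3. It was singled out after its values were seen, and like the alpha genes it was highest in Arl13b-/- 2 and next highest in wild-type 1.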

How the data were processed

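The authors deposited a table named as normalized counts after variance stabilisation, and its log2-like values run between 5.13 and 18.39. The submitters' processing notes name DESeq2, DESeq 1.16.1, Salmon 0.9.1, STAR 2.6.0, CASAVA and build mm9 without a role, and counting of shared exons is not given in the sources used here. The lowest value, shared by all libraries, is that of a count of 0. It fixes the constant of the transformation, which was inverted to give normalized counts. The step between low values gave the value of 1 read (0.536 to 1.31 normalized counts) and so the depth. Between 70.4% and 79.5% of values under 30 reads lay within 0.05 of a whole read, so no count test was run.

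Groups follow the genotype labels. A gene needed a mean 1 or more above the lowest value, which 14249 had. The comparison used limma 3.58.1 (R 4.3.3; mean-variance trend, two-sided, Benjamini-Hochberg over all 14249 genes, threshold 0.05). A difference in variance-stabilised values understates the change of low genes. Replicate numbers were not used as pairs in the main comparison. The deviations of same-numbered libraries from their group means correlated at -0.71, -0.71 and 0.62. Arl13b-/- 2 and wild-type 1, which differ in number, dominate these deviations, so the correlations cannot show whether the numbers pair samples. No 2 libraries agreed within sampling noise.

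Gene order, transcript lengths and shared exons come from GENCODE vM21 (GRCm38), another build than the authors', so no coordinates or sequences are printed. Named genes are the 5 C-type genes, the 4 other members of each cluster with the highest mean count, the 2 members per cluster, direction and comparison with the smallest p, and 2 genes per other list and comparison with the smallest p. The members, lists, libraries left out and rules were chosen with earlier results of these data known. Alternatives were other filters, normalizations, scales and variance models, library weights, a replicate block and leaving out each library. Shares of each library's total were added after the data were seen. Not every marker of the labelled tissue is reported here. Figures were drawn with matplotlib 3.10.9.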

Additional observations from a re-analysis of the deposited data

How the results depend on the processing

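No clustered protocadherin passed the threshold under any alternative of either comparison (limma); the smallest adjusted p of a member was 0.415 with 6 libraries, under library weights, and 0.198 with 4, without Arl13b-/- 1. The count over all genes with 6 libraries (0) became 3 with no filter and 214 with library weights, and lay between 0 and 4 when a library was left out. With 4 libraries, 36 genes passed, but 1 with no filter, 66 with quantile normalization, 7 with no trend and 98 with robust moderation, and between 6 and 725 when a library was left out, where the lone library of a genotype is assumed to vary like the others. The cause was not tested. Median differences with 6 libraries ranged, when a library was left out, between -0.69 and 1.01 for alpha, -0.39 and 0.37 for beta and -0.29 and 0.41 for gamma, and under library weights were -0.05, -0.06 and -0.02 (a fit whose weights did not reach the convergence tolerance). With 4 libraries the beta median of -0.03 was 0.03 with quantile normalization and between -0.08 and 0.02 when a library was left out. Counting shares of the library total, added after the data were seen, 5 rather than 12 beta genes were higher in Arl13b-/- 2 than in wild-type 1. By share, this held for 4921 of 14249 genes tested. Without Arl13b-/- 2, 44 of 57 members changed the sign of an uncalled difference.

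With the replicate number as a block in the 6-library comparison, 0 members and 0 genes passed (limma), and the medians were 0.36 for alpha, 0.01 for beta and 0.15 for gamma. No paired analysis was possible because Arl13b-/- 1 and 3 and wild-type 2 and 3 share only 1 replicate number.

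Members near the lowest values, such as Pcdhb13, rest on few reads, and their values are limited by depth.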

Other observations

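The genes next to the clusters, chosen after their values were seen, differed in the same 2 libraries only in part. Rell2, a RELT-family membrane protein gene after the gamma cluster, had 178, 3975 and 172 normalized counts in Arl13b-/- 1 to 3, against 1251, 176 and 170 in wild-type 1 to 3. Fchsd1, an actin regulator gene, had 406, 3042 and 374 in Arl13b-/- 1 to 3, against 1075, 366 and 400 in wild-type 1 to 3. Both were highest in Arl13b-/- 2 and next highest in wild-type 1, as the protocadherins were. Taf7, a subunit of the general transcription factor TFIID that lies between the beta and gamma clusters, had 1080, 625 and 987 in Arl13b-/- 1 to 3, against 687, 941 and 1053 in wild-type 1 to 3. Hdac3, a histone deacetylase, had 3602, 3464 and 3307 in Arl13b-/- 1 to 3, against 2694, 3441 and 3559 in wild-type 1 to 3. Taf7 was lowest where the protocadherins were highest, and Hdac3 was highest in Arl13b-/- 1. Of 9 neighbouring genes tested, 0 passed the threshold in either comparison (limma), against 0% of genes with 6 libraries and 0.253% with 4.

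Genes that RefSeq lists as Gm37013, Gm38666 and Gm38667, with synonyms that join an alpha gene to the gamma cluster, were also in the table. Gm37013 had 323, 1335 and 346 normalized counts in Arl13b-/- 1 to 3, against 766, 351 and 320 in wild-type 1 to 3. Gm38666 had 312, 1168 and 341 in Arl13b-/- 1 to 3, against 744, 347 and 341 in wild-type 1 to 3, and Gm38667 had 327, 1220 and 352 in Arl13b-/- 1 to 3, against 771, 334 and 352 in wild-type 1 to 3. Their ratios in Arl13b-/- 2 (3.99, 3.58 and 3.60) were closer to those of the gamma genes than to those of the alpha genes. They overlap the clusters, and how reads were divided between them and the members is not given in the sources used here.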
